A study of Mus musculus with 9 samples.

Results

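The data described here are the RNA levels of 7 ARID genes, Arid2, Arid3a, Arid3b, Arid4a, Arid4b, Arid5a and Arid5b, in mouse embryonic stem (ES) cells given a microRNA mimic. They were chosen by gene symbol, with earlier results of these data known. They come from the ARID genes that encode no subunit of the core BAF remodelling complex, without Arid3c, Jarid2 and the Kdm5 genes. On the array they are 7 of 19938 named genes. The cells were Dgcr8 -/- ES cells, which lack a protein needed to process most microRNA precursors and so make few microRNAs of their own. One group was transfected with 50 nM of a let-7c mimic and another with 50 nM of a miR-294 mimic, while the remaining group was mock transfected. All groups then went without leukaemia inhibitory factor, a cytokine that keeps ES cells undifferentiated, and were harvested at 12 h. Each group had 3 biological replicates, 1 array each. There was no group with an unrelated mimic, and an effect of small RNA in general cannot be told apart from that of a mimic's sequence when either is set against mock. The labels name no clone, passage or strain for the cells.

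ARID stands for AT-rich interaction domain, a DNA-binding fold shared by a family of chromatin and transcription factors. Arid2 is the subunit that sets the PBAF form of the SWI/SNF remodelling complex apart. Arid3a and Arid3b are closely related DNA-binding factors, and Arid3b is a published let-7 target. Arid4a and Arid4b are subunits of the Sin3 histone deacetylase complex, and Arid4a binds the retinoblastoma protein. Arid5a also binds RNA and stabilises cytokine messages, and Arid5b works with the histone demethylase Phf2. A microRNA lowers messages that pair with its seed, bases 2 to 8 from its 5′ end.

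The mature sequences of both mimics' microRNAs are shown because the seeds decide which messages each can pair with. They are given 5′ to 3′ as RefSeq lists them for GRCm38.p6, with the seed in capitals, and each mimic is followed by 2 mouse microRNAs that share its seed.
let-7c-5p: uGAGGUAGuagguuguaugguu
let-7a-5p: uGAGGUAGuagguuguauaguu
miR-98-5p: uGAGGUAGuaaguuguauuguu
miR-294-3p: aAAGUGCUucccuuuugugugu
miR-295-3p: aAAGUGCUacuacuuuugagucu
miR-302b-3p: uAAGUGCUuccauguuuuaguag
The let-7c-5p sequence is encoded at 2 places, chr15:85706616-85706637 and chr16:77599672-77599693, and miR-294-3p at chr7:3220691-3220712, all on the plus strand. In the RefSeq table, 11 mature mouse microRNAs carried the let-7c seed GAGGUAG and 5 carried the miR-294 seed AAGUGCU. A message that pairs fully with these seeds holds CUACCUC for let-7c or AGCACUU for miR-294. The 3′ UTRs of the ARID genes were not analysed here, so no site is given for any of them.

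Each of the 7 genes had 1 probe set of its own, and all 7 passed the filter on dim probe sets. Of 19938 named genes, 13182 passed it. Levels are log2 intensities, and since probes differ in brightness, no gene's level is set against another's. The lowest correlation between replicate arrays was 0.995, and the median within-group SD of a gene was 0.0566 to 0.0676 (log2). All 8 ES cell markers examined passed the filter. Their mean level was 12.09 to 12.10 per array with let-7c, 12.36 to 12.42 with miR-294 and 12.27 to 12.32 with mock. With let-7c 5 of them fell (Nanog, Esrrb, Utf1, Zfp42 and Sox2, by -0.46 to -0.23), where 14.8% of all tested genes did. Pou5f1 (-0.10), Dppa5a (0.03) and Tdgf1 (0.05) did not pass the threshold given below with let-7c. With miR-294 4 rose (Esrrb, Tdgf1, Utf1 and Zfp42, by 0.21 to 0.24), where 20.7% of all tested genes did. Pou5f1 (-0.02), Sox2 (0.01), Nanog (-0.08) and Dppa5a (0.03) did not pass with miR-294. The part of the ES cell markers in the ARID results was not tested. Among markers of other cells, 4 of 6 for feeder fibroblasts, 3 of 5 for primitive endoderm, 3 of 5 for trophoblast and 3 of 4 for neurectoderm passed the filter. Of these, the endoderm marker Gata4 rose (0.31) and the trophoblast marker Tfap2c fell (-0.31) with let-7c, and the fibroblast marker Col3a1 rose with miR-294 (0.16). No other tested marker of these sets passed the threshold against mock. With let-7c the other tested endoderm markers were Gata6 (0.09) and Foxa2 (-0.04), and the trophoblast ones Krt7 (-0.005) and Hand1 (0.05). The other tested fibroblast markers with miR-294 were Col1a1 (0.17), Col1a2 (0.16) and Thy1 (-0.01). The mean level of each set was taken over all its markers, including those that did not pass the filter. For the endoderm markers it was 7.25 to 7.37 per array with let-7c, 7.17 to 7.26 with miR-294 and 7.09 to 7.27 with mock. For the trophoblast markers it was 7.28 to 7.39, 7.37 to 7.41 and 7.32 to 7.38, and for the fibroblast markers 7.04 to 7.28, 7.13 to 7.26 and 7.05 to 7.19. The neurectoderm markers read 8.30 to 8.31 with let-7c, 8.23 to 8.34 with miR-294 and 8.23 to 8.35 with mock. As probes differ in brightness, the sets are not set against each other. Whether such cells were present, and what part their RNA had in the ARID results, was not tested.

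Arid3a and Arid3b fell with let-7c, while their differences between miR-294 and mock did not pass the threshold. Arid4a and Arid4b fell with miR-294, and Arid4b had a small fall with let-7c too. Arid5b was slightly higher with both mimics, and Arid2 and Arid5a passed the threshold in no comparison. A gene was called changed at an adjusted p under 0.05 in a limma fit of all tested genes, with Benjamini-Hochberg adjustment.

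**Figure D1:**
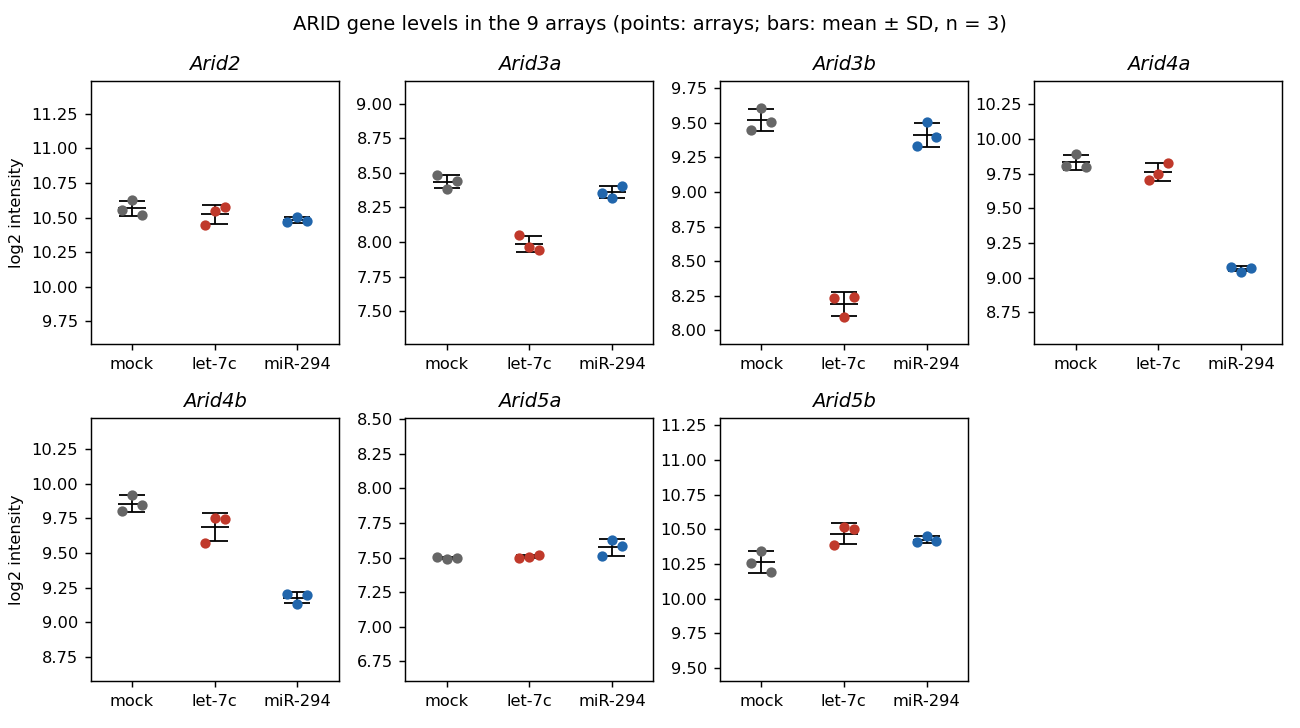
Log2 intensity (vertical axis) of each ARID gene in the mock, let-7c and miR-294 groups, with a point per array and bars for the mean ± SD (n = 3). Every panel spans the same number of log2 units. Arid3b stands at 8.19 with let-7c and 9.52 with mock, and Arid4a at 9.06 with miR-294 and 9.83 with mock.

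Setting let-7c against mock shows which messages differ after transfection of a let-7c mimic in cells that make few microRNAs. Arid3b, a DNA-binding factor needed for embryonic development, read 8.24, 8.09 and 8.24 with let-7c, 9.45, 9.61 and 9.50 with mock and 9.33, 9.50 and 9.40 with miR-294 (log2, replicates 1 to 3). All let-7c arrays were low and lay far below the other 6, while mock and miR-294 overlapped. The fall from mock was -1.33 ± 0.06 (log2 difference ± SE, n = 3 per group, adjusted p = 3.69e-07), which left 39.9% of the mock level. Only 4 of the 13182 tested genes fell by more. As the arrays read RNA from whole cultures, fewer cells making a message and less of it per cell cannot be told apart.

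Arid3a, the closest relative of Arid3b and first known as a B cell factor, fell by much less. It read 8.05, 7.97 and 7.94 with let-7c, 8.48, 8.39 and 8.44 with mock and 8.35, 8.32 and 8.40 with miR-294. Again all let-7c arrays lay below all others, and the mock and miR-294 arrays overlapped. The difference from mock was -0.45 ± 0.05 (adjusted p = 7.84e-05), to 73.2% of the mock level. In the order of all tested genes from the largest fall, Arid3a stood at place 282.

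Arid4b, a Sin3 complex subunit, was slightly lower with let-7c. It read 9.57, 9.75 and 9.74 with let-7c and 9.80, 9.92 and 9.85 with mock, so that the groups came close without overlapping, and let-7c replicate 1 was the lowest. The difference of -0.17 ± 0.06 passed the threshold narrowly (adjusted p = 0.0489). The call ended under 9 of 15 alternatives (adjusted p from 0.0266 to 0.167). These included the fits without let-7c replicate 1 (0.156), without let-7c replicate 3 (0.0551), and without replicate 1 (0.0533), 2 (0.167) or 3 (0.0988) of mock. The others were quantile normalization (0.0550), no filter (0.0923), every probe set tested (0.0806) and a fit of the compared groups alone (0.0707).

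Arid5b, a chromatin factor known from fat cell development, was higher with let-7c. It read 10.39, 10.52 and 10.50 with let-7c against 10.26, 10.35 and 10.19 with mock, so every let-7c array was above every mock array by a small margin. The difference was 0.20 ± 0.05 (adjusted p = 0.0158; 0.00285 to 0.0659 over the alternatives). It no longer passed without mock replicate 3 (0.0659), nor without let-7c replicate 2 (0.0540) or 3 (0.0552).

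The remaining genes did not pass the threshold with let-7c. Arid4a read 9.70, 9.75 and 9.83 with let-7c and 9.81, 9.89 and 9.80 with mock, and the groups overlapped (difference -0.07, 95% interval -0.18 to 0.04, adjusted p = 0.299). Arid2, the PBAF subunit, read 10.45, 10.55 and 10.57 with let-7c and 10.56, 10.62 and 10.52 with mock (-0.05, interval -0.15 to 0.06, adjusted p = 0.527). Arid5a read 7.49, 7.51 and 7.52 with let-7c and 7.51, 7.49 and 7.50 with mock (0.01, interval -0.09 to 0.11, adjusted p = 0.901), a difference that turned sign under quantile normalization. None of these intervals reaches the difference of -0.45 measured for Arid3a. In all, 3 of the 7 genes fell with let-7c, where 14.8% of all tested genes did, and 1 rose, where 13.9% did. Arrays of let-7c lay all below mock for 3 of them (21.9% of tested genes) and all above for 1 (22% of tested genes).

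The comparison of miR-294 with mock used the same mock arrays, so the results against mock are not independent of each other. Arid4a, which ties the retinoblastoma protein to histone deacetylases, read 9.08, 9.04 and 9.07 with miR-294 against 9.81, 9.89 and 9.80 with mock. Its miR-294 arrays were tightly grouped and far below the other 6. The fall was -0.77 ± 0.05 (adjusted p = 6.74e-07), to 58.7% of the mock level and place 213 among all tested genes. Arid4b read 9.21, 9.13 and 9.19 with miR-294 and also lay below every let-7c and mock array. It fell by 0.68 on the log2 scale (SE 0.06, adjusted p = 5.28e-06), to 62.4% of mock and place 308. The 95% intervals of the pair overlapped (-0.88 to -0.66 for Arid4a and -0.81 to -0.55 for Arid4b).

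Arid5b read 10.41, 10.45 and 10.42 with miR-294, above the 10.26, 10.35 and 10.19 of mock. The difference of 0.16 ± 0.05 passed the threshold (adjusted p = 0.0329; 0.0113 to 0.124 over the alternatives). It ended without any 1 of miR-294 replicate 1 (0.0535), replicate 2 (0.0949) or replicate 3 (0.0645), without mock replicate 1 (0.0812) or mock replicate 3 (0.124), with no filter on dim probe sets (0.0638) and with every probe set tested (0.0528).

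Arid3b (-0.11, 95% interval -0.25 to 0.03, adjusted p = 0.193) and Arid3a (-0.08, interval -0.18 to 0.03, adjusted p = 0.221) did not pass the threshold with miR-294. Arid2 read 10.47, 10.51 and 10.48 with miR-294, just under all mock arrays, and its difference of -0.08 (interval -0.19 to 0.02) had an adjusted p of 0.186. Arid5a read 7.51, 7.63 and 7.58, just above all mock arrays, with a difference of 0.08 (interval -0.02 to 0.17, adjusted p = 0.180). In all, 2 of the 7 genes fell with miR-294, where 21.1% of tested genes did, and 1 rose, where 20.7% did. Arrays of miR-294 lay all below mock for 3 genes (25.5% of tested genes) and all above for 2 (28.3%). With 7 genes, nothing particular to the family is read from these counts.

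**Figure D2:**
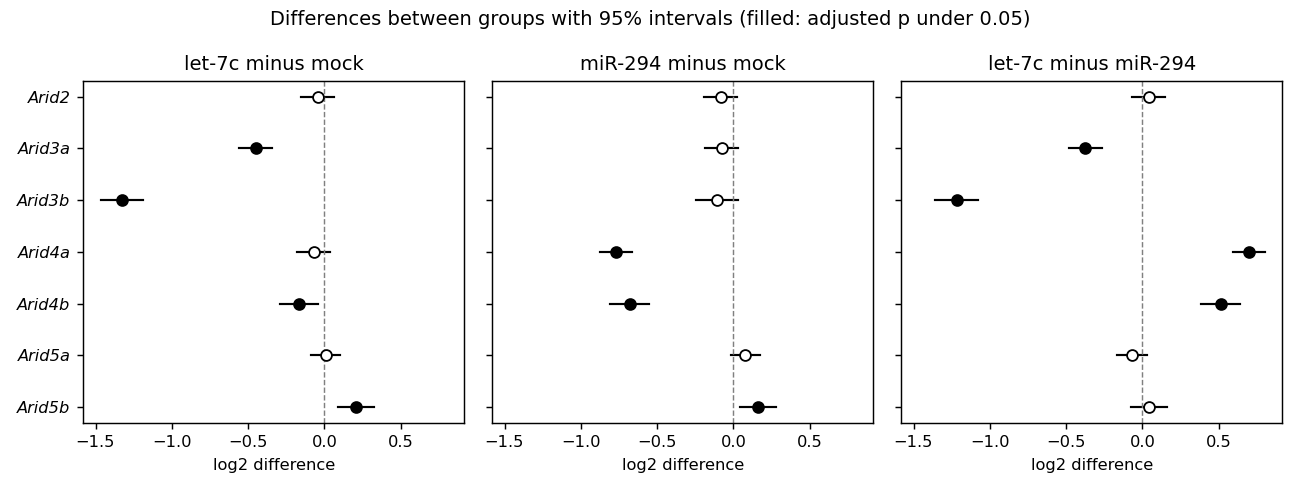
Log2 difference (horizontal axis) of each ARID gene in the 3 comparisons, with 95% intervals from the limma fit and filled points for an adjusted p under 0.05. Arid3a and Arid3b lie left of 0 for let-7c minus mock, and Arid4a and Arid4b for miR-294 minus mock.

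Setting the mimics directly against each other tests whether their effects differ, with no mock array in the difference. Let-7c gave the lower level of Arid3b (let-7c minus miR-294, -1.22 ± 0.06, adjusted p = 8.84e-08), and also of Arid3a (-0.37 ± 0.05, adjusted p = 6.13e-05). Arid4a was higher with let-7c (0.70 ± 0.05, adjusted p = 5.86e-07), as was Arid4b (0.51 ± 0.06, adjusted p = 2.06e-05). Of the 7 genes 2 were thus higher and 2 lower, where 26.2% and 24.5% of all tested genes were. The let-7c arrays lay all above those of miR-294 for both Arid4 genes (28.7% of tested genes did so) and all below them for both Arid3 genes (28.3%). The small rise of Arid5b did not differ detectably between the mimics (0.04, 95% interval -0.07 to 0.16, adjusted p = 0.536), nor did Arid2 (0.04, interval -0.07 to 0.15, adjusted p = 0.531) or Arid5a (-0.07, interval -0.16 to 0.03, adjusted p = 0.223).

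The 4 large falls against mock passed the threshold under all 15 alternatives, and the 3 small changes did not. Over these, the let-7c difference ranged from -1.36 to -1.28 for Arid3b and from -0.48 to -0.43 for Arid3a. The miR-294 difference ranged from -0.79 to -0.74 for Arid4a and from -0.71 to -0.65 for Arid4b.

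**Figure D3:**
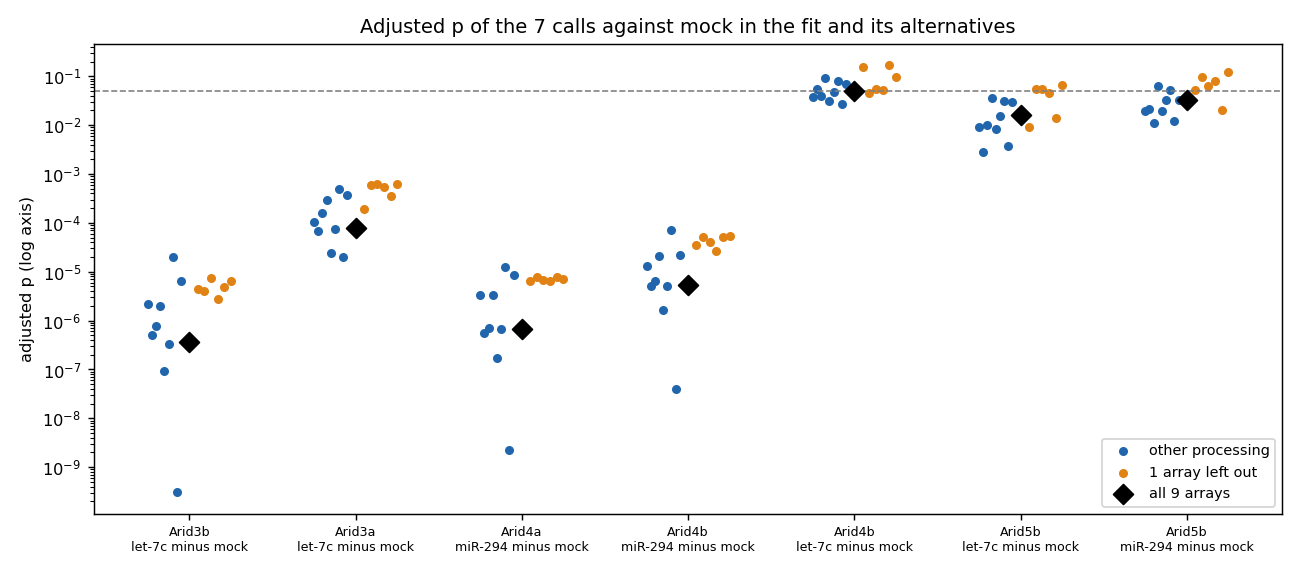
Adjusted p (vertical log axis) of the 7 calls against mock, with a diamond for all 9 arrays, blue points for other processing and orange points for 1 array left out, and the threshold of 0.05 as a dashed line. Arid3b, Arid3a, and both Arid4 genes with miR-294 stay below the line at every point, while the small changes of Arid4b with let-7c and of Arid5b with either mimic cross it.

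The genes nearest to each called ARID gene were found by the root mean square distance over the 9 arrays, after each gene's mock mean was subtracted. Genes chosen in this way have differences from mock like those of the ARID gene by construction. Nearest to Arid3b were Dicer1 (distance 0.0910 log2 units), whose product cuts microRNA precursors to their mature length, the RNA-binding protein gene Igf2bp1 (0.116) and Trim6 (0.125). Their let-7c differences were -1.42, -1.30 and -1.48. Nearest to Arid3a were Oxa1l (0.0293), Uggt1 (0.0464) and Poglut1 (0.0473), with let-7c differences between -0.46 and -0.44. Oxa1l is known for inserting proteins into the inner mitochondrial membrane, and Uggt1 for checking protein folding in the endoplasmic reticulum.

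For Arid4a the nearest were the copper transporter gene Atp7a (0.0332), Rab8b (0.0427) and the kinase gene Rps6ka3 (0.0434), with miR-294 differences of -0.76, -0.78 and -0.80. For Arid4b they were Aifm1 (0.0460), Rb1cc1 (0.0558) and the importin gene Kpna2 (0.0567), with miR-294 differences of -0.62, -0.69 and -0.63. For Arid5b they were Ap3d1 (0.0301), Cst3 (0.0341) and Spred1 (0.0355), which were 0.18 to 0.21 higher than mock with let-7c.

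The partner lists that follow are read against all tested genes, of which 14.8% fell and 13.9% rose with let-7c, and 21.1% fell and 20.7% rose with miR-294. Where 0 genes of a list passed limma's adjusted threshold in a direction, the number with an unadjusted p under 0.05 is given too. Nothing particular to a list is read from its counts.

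The ARID genes left out of the 7 include Arid1a and Arid1b, which are BAF subunits, Arid3c, Jarid2, a Polycomb partner, and the Kdm5 histone demethylases. Of 8 such genes 7 were tested. With let-7c 4 fell and 0 rose (0 also by unadjusted p), with a median difference of -0.17 beside -0.07 for the 7 described here and 0.02 for all tested genes. Jarid2 fell most (-0.54 ± 0.05, adjusted p = 3.29e-05), followed by Arid1a (-0.40), Kdm5b (-0.21) and Kdm5c (-0.17). With miR-294 2 fell, Arid1b (-0.33 ± 0.05, adjusted p = 0.000544) and Kdm5a (-0.25), and Kdm5c rose (0.17). The median was 0.10, beside -0.08 for the 7 described here and 0.02 for all tested genes. The rise of Kdm5c was lost without miR-294 replicate 1 or 2 and without mock replicate 3, where 0 of these genes rose.

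Arid2 itself passed no threshold, while several of its PBAF partners did. Of 16 partners tested, 6 fell with let-7c and 0 rose (2 by unadjusted p; median -0.07). The number that rose was 2 with the stricter filter and 1 with quantile normalization or with an intensity trend. The largest falls were those of Smarcd1 (-0.95 ± 0.05, adjusted p = 1.27e-06), Smarcc1 (-0.62), the ATPase gene Smarca4 (-0.31) and Bcl7a (-0.25). Except Bcl7a, whose product is an accessory subunit, these encode the ATPase or core subunits that PBAF shares with BAF. Pbrm1, which like Arid2 is found in PBAF only, did not pass with let-7c (0.10, adjusted p = 0.0812), and neither did Brd7 (-0.05) or Phf10 (-0.06). With miR-294 5 of 16 fell and 0 rose (0 also by unadjusted p; median -0.04), led by Smarcc2 (-0.62 ± 0.05, adjusted p = 2.42e-06), Pbrm1 (-0.17), Smarcc1 (-0.16) and Bcl7a (-0.15). The count with miR-294 was 3 when arrays were centred on their 75th percentile, with no filter, and without replicate 1 or 2 of miR-294 or replicate 2 or 3 of mock. With the replicate number as a block, Smarce1 also fell with let-7c (adjusted p = 0.0446) and Smarcd2 with miR-294 (0.0470).

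Of 18 tested partners of Arid4a and Arid4b in the Sin3 histone deacetylase complex, 3 fell and 3 rose with miR-294 (median -0.01), beside the 21.1% and 20.7% of all tested genes. Rbbp7, a histone-binding subunit, fell (-0.33 ± 0.05, adjusted p = 0.000425), as did Tet1, a DNA demethylation enzyme found with Sin3a in ES cells (-0.15), while Brms1 (0.25) and Ing1 (0.21) rose. The number that fell was 1 without mock replicate 2. With let-7c 5 fell and 0 rose (1 by unadjusted p, and 1 called with the stricter filter; median -0.07), and Sinhcaf, an ES cell subunit of the complex, fell most (-0.48 ± 0.04, adjusted p = 1.75e-05), followed by Tet1 (-0.31), the scaffold gene Sin3a (-0.24) and Sap130 (-0.19). With the replicate number as a block, Sap18 also fell (adjusted p = 0.04995) and Ing1 rose (0.0475) with let-7c, and Sin3b fell (0.0481) and Suds3 rose (0.0383) with miR-294. The deacetylase genes Hdac1 and Hdac2 did not pass the threshold with either mimic, with differences between -0.10 and 0.05.

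Of the 9 retinoblastoma and E2F genes, whose products bind Arid4a or Arid3a in part, 5 fell with miR-294 and 2 rose (median -0.24), where 21.1% of all tested genes fell and 20.7% rose. All 3 pocket protein genes fell, Rbl2 the most (-1.22 ± 0.09, adjusted p = 2.41e-06), then Rb1 (-0.71) and Rbl1 (-0.42), while E2f4 rose (0.41). With let-7c 4 fell and 0 rose (1 by unadjusted p; median -0.02), namely E2f5 (-1.06 ± 0.06, adjusted p = 7.64e-07), E2f6 (-0.86), E2f3 (-0.36) and E2f4 (-0.23). Rb1 did not pass with let-7c (0.14, adjusted p = 0.0864) but rose with the replicate number as a block (0.0249). E2f1, the E2F that Arid3a is known to bind, did not pass with let-7c (0.04) and fell with miR-294 (-0.24 ± 0.05, adjusted p = 0.00214).

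Among 4 genes linked to the Arid5 proteins, Phf2, the demethylase partner of Arid5b, rose with let-7c (0.29 ± 0.05, adjusted p = 0.00245) and fell with miR-294 (-0.46 ± 0.05, adjusted p = 5.29e-05). The mimics differed in Phf2 by 0.74 ± 0.05 (let-7c minus miR-294, adjusted p = 7.28e-07). Zc3h12a, a ribonuclease gene whose product opposes Arid5a on cytokine messages, rose with miR-294 (0.44 ± 0.06, adjusted p = 0.000237). Stat3 rose with let-7c (0.22, adjusted p = 0.0145). The count that rose with let-7c was 2 of 4, and 1 without let-7c replicate 3 or mock replicate 3. Sox9 did not pass in any comparison.

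**Figure D4:**
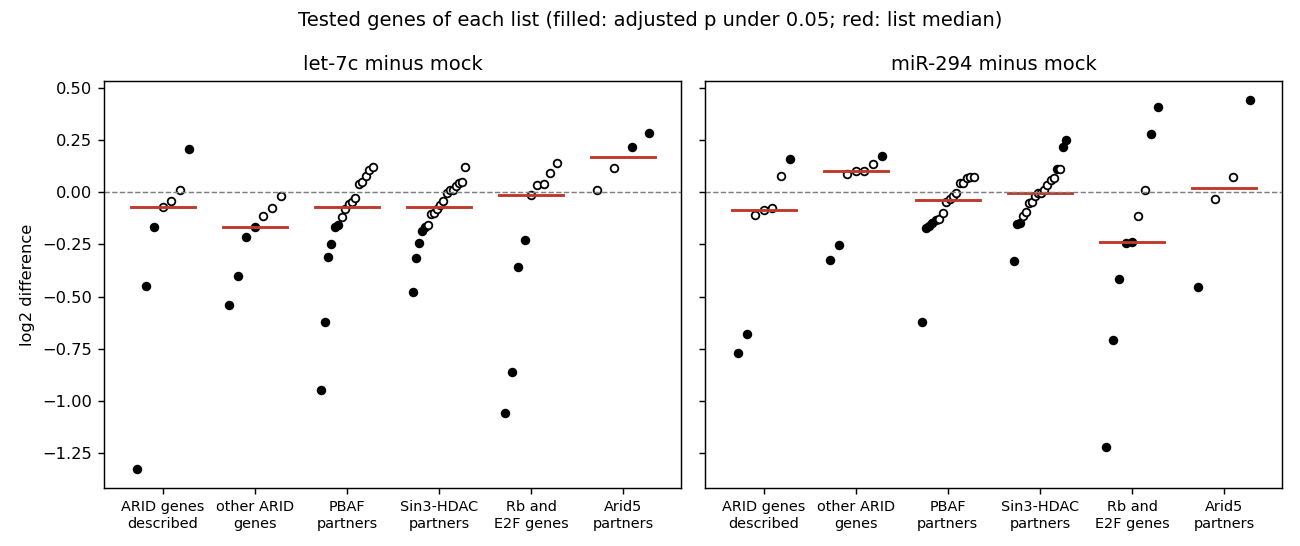
Log2 differences from mock (vertical axis) of the tested genes of each list, in rising order within a list, for let-7c (left) and miR-294 (right), with filled points for an adjusted p under 0.05 and a red line at the list median. The let-7c medians of the ARID genes described, of the other ARID genes and of the Rb and E2F genes are -0.07, -0.17 and -0.02, and the miR-294 medians are -0.08, 0.10 and -0.24.

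Between the mimics, 26.2% of all tested genes were higher and 24.5% lower with let-7c. Of the 7 tested other ARID genes 2 were higher and 4 lower, with Jarid2 (-0.64, adjusted p = 1.48e-06) and Arid1a (-0.49) the lowest. The number higher was 1 without let-7c replicate 2, without miR-294 replicate 3, with no filter and in a fit of the compared groups alone. Of the PBAF partners 3 were higher and 5 lower. Smarcd1 was lower with let-7c (-1.02 ± 0.05, adjusted p = 9.37e-08) and Smarcc2 higher (0.74 ± 0.05, adjusted p = 3.21e-07). Among Sin3 partners 3 were higher and 9 lower, Sinhcaf the most (-0.51, adjusted p = 1.53e-06), and the lower count was 5 without let-7c replicate 2. Of the retinoblastoma and E2F genes 4 were higher and 4 lower, with Rbl2 (1.31) and E2f6 (-1.14) the farthest apart.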

How the data were processed

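RNA from 9 cultures was measured on 1-colour arrays. The deposited values are log2 intensities, with 35557 probe sets on each array. GCRMA, which corrects background, normalizes arrays and summarises probes, is named per the submitters' processing notes; version, settings and scale are not given in the sources, and the log2 scale was read from the values' range (array medians 7.36 to 7.41). No pair of arrays shared over 0.0309% of its values. The number of arrays limits the precision.

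Probe sets were named from GEO's annotation, with symbols matched to RefSeq by gene ID for 21698. A gene was read from its probe set with 1 symbol (21789 had 1, 1621 several and 12147 none) and the highest mean. Genes were tested if at least 3 arrays exceeded their own 40th percentile of all probe sets. The fit used limma 3.58.1 in R 4.3.3 (lmFit, eBayes) with 3 group means over all 9 arrays and two-sided tests. A check on simulated data came first. Those data had no replicate effect, so the check does not cover replicates that deviate together. P-values were adjusted over all 13182 tested genes.

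Members and lists were chosen with earlier results of these data known. Named were all members, up to 4 called genes of largest change per list and comparison, and the 3 genes nearest each called member, with predicted and clone names left out; markers and a few partners with a specific role were added after their values were seen. Same-numbered replicates deviated together (correlation 0.133 to 0.418 over pairs with mock, 0.0285 to 0.248 between mimics). The main fit had no term for the replicate number, so its SEs and p-values leave this pairing out. A fit with the replicate number as a block was an alternative. Others were quantile normalization, centring, filters, probe set rules, a variance trend, fits of 2 groups and leaving out each array.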

Additional observations from a re-analysis of the deposited data

How the results depend on the processing

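Of 312 refits of a member's difference, 292 kept direction and side of the threshold, 19 lost the call and 1 reversed. The reversal was Arid5a with let-7c under quantile normalization (-0.015). The number of the 7 ARID genes that rose with miR-294 went from 1 to 0 with no filter on dim probe sets and with every probe set tested, and ranged from 0 to 1 when 1 array was left out. The number that rose with let-7c also ranged from 0 to 1 when 1 array was left out. In these cases the gene lost was Arid5b, and the cause was not tested. These fits have fewer arrays or a larger number of features by construction. The numbers that fell, and all numbers in the direct comparison, stayed within 1.5 times of the main value at every alternative. The replicate block changed no member's call. With it, Arid4b with let-7c had an adjusted p of 0.0379 and Arid5b one of 0.00907 with let-7c and 0.0191 with miR-294, and 4557 genes were called with let-7c and 6185 with miR-294, against 3783 and 5521. The stricter filter left Arid5a untested. The number of arrays limits the precision.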

Other observations

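A further 3 probe sets were annotated to Arid4b together with zinc finger genes, so none can be read as Arid4b. Their differences from mock lay between -0.06 and 0.03 with miR-294 and between -0.10 and 0.01 with let-7c, with SDs within a group of 0.03 to 0.14 (n = 3). None showed a fall of the size seen in the probe set that holds Arid4b alone.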
